A study of Mus musculus with 4 samples.

Results

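Genes of axonal transport motors and of their tracks were examined in mouse spinal cord: kinesins and kinesin light chains, dynein and dynactin subunits, tubulins with the gamma-tubulin complex, and neurofilaments. Members were all genes of the array's probe table, among spots assigned to 1 gene, whose symbol begins with Kif or Klc and a digit, with Dync, Dynl or Dctn, or with Tuba, Tubb or Tubg, or is Nefl, Nefm or Nefh. The rule found 59 of 10225 genes, on 116 spots. These were 26 kinesin genes (24 heavy chains and 2 light chains), 16 dynein and dynactin genes, 15 tubulin and gamma-tubulin complex genes and 2 neurofilament genes, Nefl and Nefm. A further 9 spots were assigned to several genes of which at least 1 had such a symbol, and these were not used.

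The cords came from adult female SJL/J mice, either control or with AT-EAE. AT-EAE, as the name is commonly used, is adoptive-transfer experimental autoimmune encephalomyelitis, in which myelin-reactive T cells are given to recipient mice. The labels give no further treatment of the controls and no time after transfer. RNA was pooled from the cords of 2 mice per extract. A 2-colour cDNA array compared 2 such extracts, always of the same group, so that 4 extracts filled 2 arrays in either group. Where 4 values stand together below, both control arrays come first (1, then 2), followed by both AT-EAE arrays (1, then 2).

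Kinesins carry cargo mainly toward the plus ends of microtubules, which in axons point away from the cell body, while cytoplasmic dynein with its cofactor dynactin carries cargo back. Microtubules are polymers of alpha and beta tubulin, and gamma tubulin with its complex starts new ones. Neurofilaments fill large axons and set their calibre. Spinal cord white matter is rich in such axons, and a number of kinesins act in cell division rather than in transport.

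A deposited value is the log ratio between both normalized channel signals of 1 spot, taken here as log2. Neither its base nor the numerator channel is given in the sources used here. Both channels held extracts of 1 group, so a ratio says how far these extracts differed, together with dye effects and noise, and does not set the level in AT-EAE cord against that in control cord. The labels also speak of averaged AT-EAE to control ratios, which were not analysed here. In bulk cord, fewer cells of a type and less RNA per cell cannot be told apart. Between 37.6% and 73.6% of the 28704 spots had a value per array. AT-EAE array 2 stood apart, with the fewest values (10788 spots, against 15635 to 21139 on the other arrays), a median gene ratio of -0.07 against -0.01 to 0.01, and the widest spread. The standard deviation over genes, estimated from the median absolute deviation, was 0.33 there and 0.17 to 0.23 on the others. Over all spots, the ratios of pairs of arrays had correlations of -0.01 to 0.35. Of the marker lists, 5 of 14 neuron genes, 3 of 10 oligodendrocyte genes, 4 of 8 astrocyte genes and 7 of 9 microglia and macrophage genes were on the array. In the same order, values were found for 3 to 5, 2 to 3, 3 to 4 and 5 to 7 of these per array. The 1 T cell gene on the array had none, and no Schwann cell gene was on it. A value shows that a spot was kept, not how much RNA was there.

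The first comparison was of which of the motor and track genes had values in which cords. Tubulins kept most of their values in AT-EAE cord, and of the 4 classes kinesins had the lowest share of genes with a value on each array. At least 1 spot had a value for 53, 51, 49 and 40 of the 59 genes. These shares were 89.8%, 86.4%, 83.1% and 67.8%, beside 86.2%, 80.1%, 72.4% and 54.9% of all genes. Wilson 95% intervals, which cover counting error only, ran from 79.5% to 95.3% on control array 1 and from 55.1% to 78.3% on AT-EAE array 2. The share was thus lower on the AT-EAE arrays than on the control arrays, as it was over all genes.

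Beta tubulins had values on every one of their 11 spots on all 4 arrays. Alpha tubulins had values on 4 of 4 spots on 3 arrays and on 3 of 4 on AT-EAE array 2. Spots of gamma tubulin and its complex had values on 13, 11, 8 and 5 of 13. Neurofilament spots had values on 4 and 3 of 4 in control, and on 4 of 4 on both AT-EAE arrays. Dynein spots had values on 84.2%, 78.9%, 73.7% and 57.9% of 19 spots. Spots of kinesins and their light chains had values on 70.0%, 58.3%, 48.3% and 33.3% of 60 spots. Over all 18511 spots of 1 gene the corresponding shares were 80.9%, 72.9%, 61.7% and 42.1%. Kinesin spots were therefore below, and alpha and beta tubulin spots above, the level of all spots on each array.

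**Figure D1:**
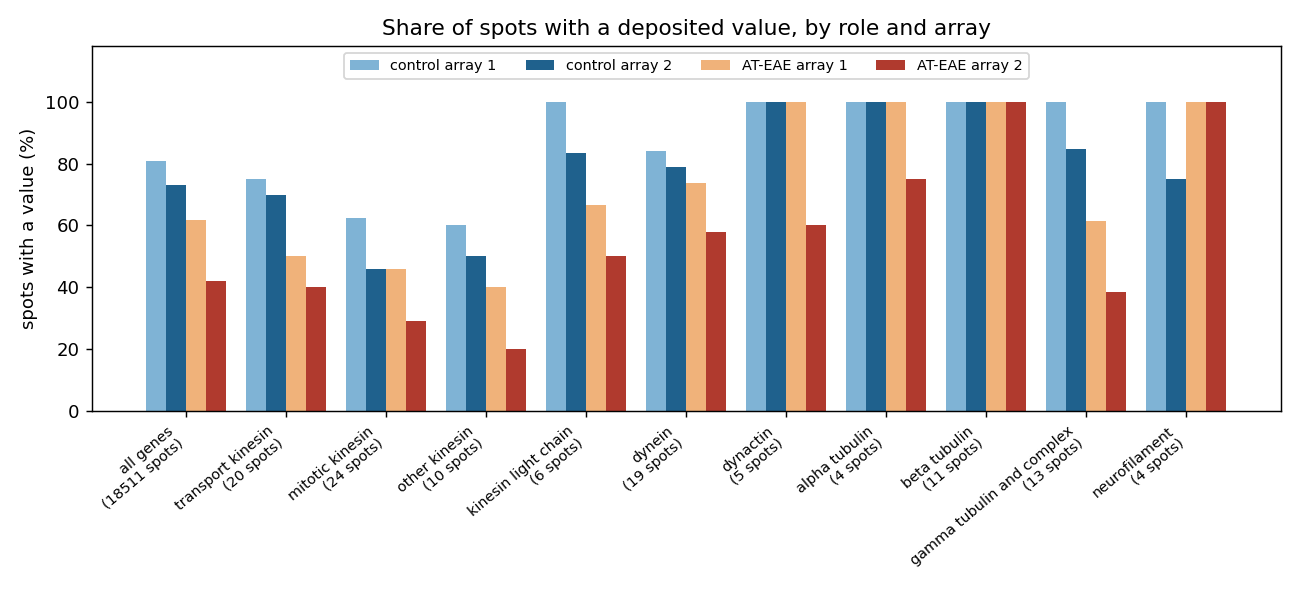
Percent of spots with a deposited value (vertical axis) for all genes and for each role (horizontal axis, with the number of spots), with 1 bar per array and no error bars, since each bar is a count of spots on 1 array. Beta tubulins stand at 100% on all 4 arrays, while all genes go from 80.9% on control array 1 to 42.1% on AT-EAE array 2.

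Of the 26 kinesin genes, 6 had no value on any array (23.1%, beside 11.9% of all genes), each of them on a single spot. They were Kif16b, an endosomal motor, Kif21b, a neuronal motor, Kif18a, a mitotic motor, and Kif9, Kif26b and Kif28. Kif1a, the main carrier of synaptic vesicle precursors, and the mitotic Kif15 had a value on control array 1 alone, at 0.15 and -0.03. Every dynein, dynactin, tubulin and neurofilament gene had a value on both control arrays. Among the 51 members with values on both control arrays, 2 had none in AT-EAE, beside 11.6% of all such genes. These were Kif3b, the partner of Kif3a in kinesin-2, on 3 spots, and Tubgcp2, a core protein of the gamma-tubulin complex, on 2 spots. Kif3b was at -0.05 and -0.31 in control, and Tubgcp2 at 0.13 and -0.29. No member had values on both AT-EAE arrays alone (0.235% of all genes with both AT-EAE values did). In all, 40 of the 59 members (67.8%) had values on all 4 arrays, against 53.1% of all genes.

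Next, the ratios of these genes were compared within and across arrays. On 3 of the 4 arrays most members lay close to the array's median, and on AT-EAE array 2 they were spread more widely. Gene ratios, the mean over the spots of a gene, ranged from -0.34 to 0.45 and from -1.09 to 0.71 on the control arrays. On the AT-EAE arrays they ranged from -0.64 to 0.41 and from -1.10 to 2.04. An absolute ratio of at least 1 was seen for 0, 1, 0 and 4 members, beside 0.136%, 0.391%, 0.365% and 1.07% of all genes. At least 0.5 was reached by 0, 3, 1 and 11 members, beside 2.82%, 5.77%, 3.42% and 15.1% of all genes. The 11 members on AT-EAE array 2 were 3 transport kinesins (Kif3a, Kif1b and Kif5b), Kif2a, Dync1li2, 4 alpha or beta tubulins (Tuba1b, Tuba4a, Tubb4b and Tubb6) and 2 gamma-tubulin complex genes (Tubgcp4 and Tubgcp5).

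**Figure D2:**
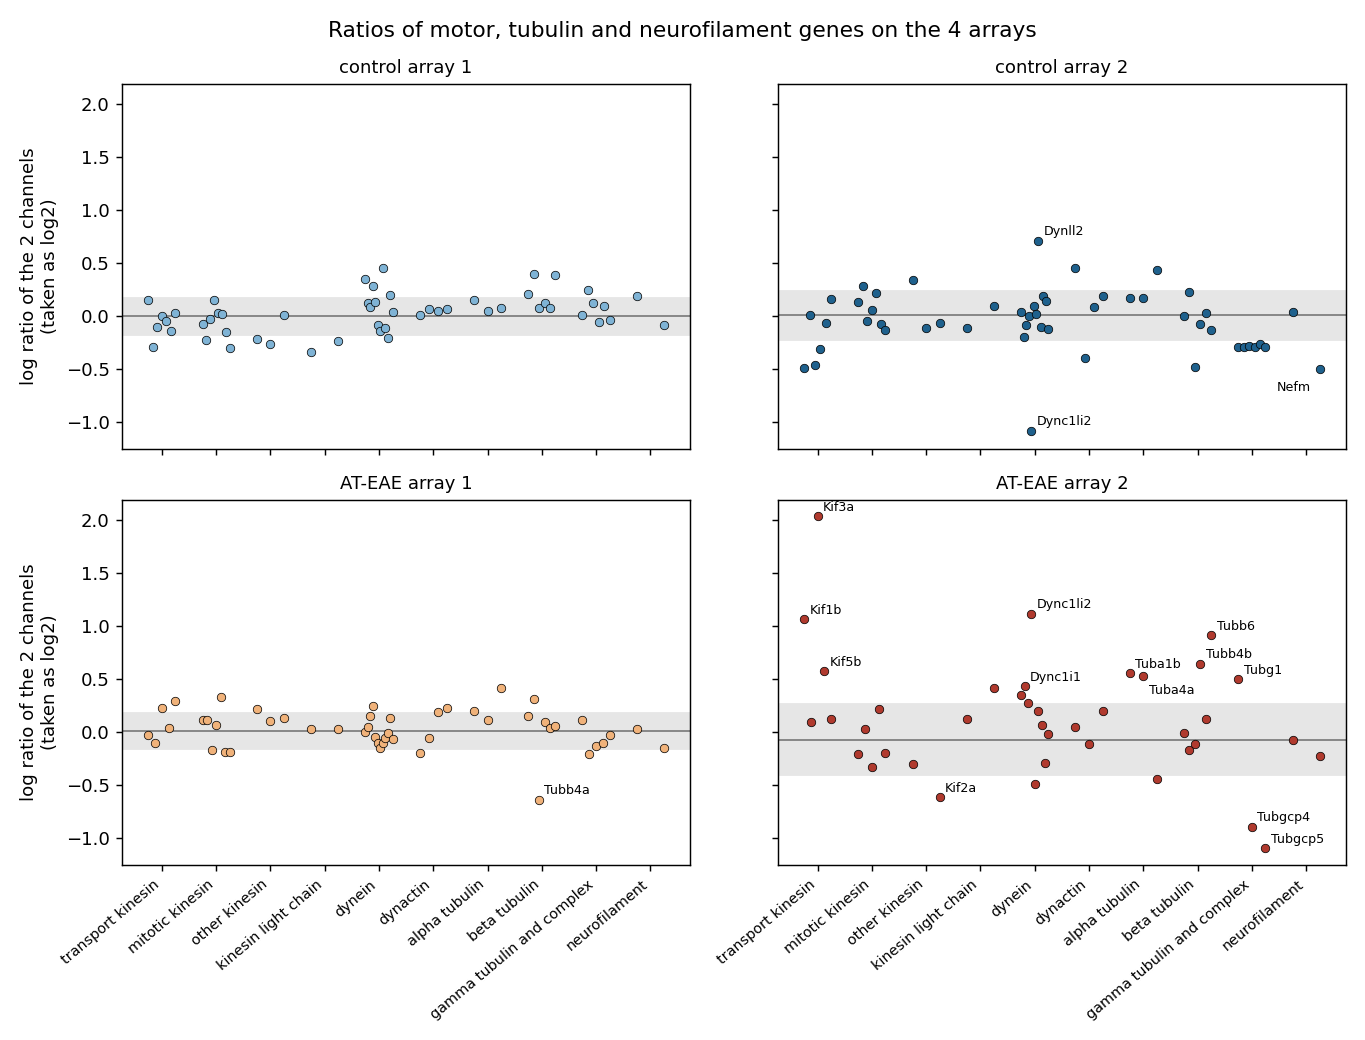
Log ratio of each member gene (vertical axis, taken as log2) by role (horizontal axis) on each array, with 1 point per gene. The grey line is the median over all genes of that array, the grey band is 1 standard deviation from the median absolute deviation on either side, and genes at least 0.5 from the line are named. Most points lie near the band on the first 3 arrays, and on AT-EAE array 2 they run from -1.10 for Tubgcp5 to 2.04 for Kif3a.

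Transport kinesins lay above the array median on AT-EAE array 2 and mostly below it on both control arrays. Of 5 such genes with a value on AT-EAE array 2, 5 were above the array median, against 2 of 7 and 2 of 6 in control and 3 of 5 on AT-EAE array 1, where 50.0% of all genes are above by definition. Their medians relative to that of the array were -0.04, -0.20, 0.03 and 0.64.

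Kif3a, the other motor subunit of kinesin-2, was at -0.01, -0.47, 0.23 and 2.04. The last was the highest of all 5616 gene ratios on that array, and it came from 1 of the gene's 3 spots, the others having no value there. That spot was at -0.28, -0.26 and 0.30 on the other arrays. Kif1b, a carrier of mitochondria and synaptic vesicle precursors, was at -0.29, -0.50, -0.03 and 1.06, on the 1 of its 3 spots that had values. Kif5b, a heavy chain of conventional kinesin found in most cells, was at -0.14, -0.07, 0.03 and 0.57. Its 3 spots with values on AT-EAE array 2 were at 0.23, 0.69 and 0.79, so that the spots had the same sign there, unlike on the other arrays. Kif5c, the neuronal heavy chain, was nearer 0 at 0.02, 0.16, 0.29 and 0.12. Kif1c, named after its values were seen, was at -0.11, 0.005, -0.10 and 0.10. Kif3a, Kif1b and Kif5b were among 9 of 40 members with values on all 4 arrays whose signed ratio was higher on both AT-EAE arrays than on both control arrays, beside 13.0% of all genes. This order depends on which extract was the numerator, which is not given. It therefore does not set the level in AT-EAE cord against that in control cord. Nor could it be tested, since with 2 arrays against 2 the smallest exact permutation p for a gene is 0.333. AT-EAE array 1 lay close above the control arrays for Kif5b, and further above them for Kif3a and Kif1b. For these 3 genes AT-EAE array 2 was the furthest from the control arrays.

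Mitotic kinesins had a mean absolute ratio of 0.20 on AT-EAE array 2, where transport kinesins had 0.78. The latter mean included Kif3a at 2.04, and the median absolute ratios there were 0.21 for mitotic and 0.57 for transport kinesins. Kif22, a chromosome motor with 8 spots of which 4 had any value, was at 0.03, 0.05, 0.06 and -0.33. Kif23, a motor of the central spindle, was at 0.01, 0.22, 0.33 and 0.21. Kif2c, which takes microtubules apart at centromeres, was at -0.16, -0.07, -0.19 and -0.20. Kif11, which pushes spindle poles apart, was at -0.08, 0.13, 0.12 and -0.21. The ratios of Kif23 and of Kif2c had the same sign on all 4 arrays, and no mitotic kinesin reached 0.5 on any array. Their medians relative to the arrays were -0.05, 0.05, 0.06 and -0.12. Of the dividing cell markers, 6 of 8 were on the array and their medians relative to the arrays were 0.17, 0.25, 0.06 and -0.03.

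Of the remaining kinesins, Kif2a, which takes microtubules apart in neurons among other cells, was at -0.26, -0.11, 0.11 and -0.62, and Kif26a at -0.22, 0.34, 0.21 and -0.30. Both were lowest on AT-EAE array 2, where Kif3a, Kif1b and Kif5b were highest. The kinesin light chains, which join conventional kinesin to cargo, had the ratios -0.34, -0.12, 0.02 and 0.12 for Klc1, and -0.24, 0.09, 0.02 and 0.41 for Klc4. Both were below the array median on control array 1 and above it on both AT-EAE arrays. On control array 1 a single Klc4 spot at -1.01 and a single Klc1 spot at -0.82 pulled the gene means down, with the other spots of these genes between -0.26 and 0.29.

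Among gene means, the largest absolute ratios in control were those of Dync1li2 and Dynll2, both dynein subunits. Dync1li2, a light intermediate chain that takes part in cargo binding, was at 0.13, -1.09, -0.05 and 1.12, on 1 spot. It was the twenty-second lowest of 8187 genes on control array 2 and the ninth highest of 5616 on AT-EAE array 2, so that the extreme arrays were in different groups and of opposite sign. Dynll2, a dynein light chain that also binds other proteins, was at 0.45, 0.71, -0.11 and 0.20. It was among 5 of 40 members whose signed ratio was lower on both AT-EAE arrays than on both control arrays, beside 17.3% of all genes. That order also depends on the numerator channel, which is not given. The absolute ratio of Dynll2 was smaller on both AT-EAE arrays as well, which was seen for 10.3% of all genes. Dynll1, the close relative of Dynll2, was at -0.14, 0.01, -0.16 and -0.50, with AT-EAE array 2 lowest.

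The heavy chain gene Dync1h1, which holds the motor, was at 0.35, 0.03, -0.003 and 0.35, so that each group held a ratio near 0 and a higher one. The intermediate chains, which bind dynactin, were at 0.12, -0.20, 0.04 and 0.43 for Dync1i1, which is neuronal, and at 0.08, -0.08, 0.15 and 0.27 for Dync1i2. Dync1li1 was at 0.28, 0.0003 and 0.25, with no value on AT-EAE array 2. Dync2li1, a subunit of the dynein of cilia, was at -0.09, 0.09 and -0.10, also with none there. These genes lay between -0.20 and 0.43, and for each of them with 4 values AT-EAE array 2 was the highest.

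The light chains of the roadblock and Tctex families lay between -0.30 and 0.19. Dynlrb1 was at -0.11, -0.11, -0.06 and 0.06, and Dynlrb2, which is linked to motile cilia, at -0.21, 0.18, -0.01 and -0.30. Dynlt1b was at 0.19, 0.14, 0.13 and -0.02, where the last joined spots at -0.48 and 0.44. Dynlt3 was at 0.03, -0.12 and -0.07 with no value on AT-EAE array 2. The medians of the 12 dynein genes relative to the arrays were 0.10, 0.003, -0.04 and 0.27. Of the 9 with a value on AT-EAE array 2, 7 lay above the array median, against 8 of 12, 6 of 12 and 4 of 12 on the other arrays in order, with 50.0% of all genes above.

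Dynactin, the complex that couples dynein to cargo, was measured by 4 genes. Dctn2, which encodes dynamitin, was at 0.01, 0.45, -0.20 and 0.05. Dctn4 was at 0.06, -0.40 and -0.06, with no value on AT-EAE array 2 and with spots at 0.22 and -0.09, at -0.68 and -0.12, and at -0.02 and -0.09 on the 3 arrays that had them. Dctn5 was at 0.05, 0.08, 0.18 and -0.12, and Dctn6 at 0.06, 0.19, 0.23 and 0.20. Dctn5 and Dctn6 had larger absolute ratios on each AT-EAE array than on either control array, which was seen for 20.3% of all genes. Dctn2 did not, and Dctn4 could not be compared in this way. The largest dynactin ratios, those of Dctn2 and Dctn4, were on control array 2 and of opposite sign.

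Alpha and beta tubulins lay mostly above the array median on control array 1 and AT-EAE array 1, and several were among the higher genes on AT-EAE array 2. Of the 9, those above the array median numbered 9, 5, 8 and 6, where 50.0% of all genes are above. The exception on AT-EAE array 1 was Tubb4a, a beta tubulin of neurons and oligodendrocytes, at -0.64. It was also low on control array 2, at -0.49, and was at 0.08 and -0.11 on control array 1 and AT-EAE array 2. On AT-EAE array 1 the myelin genes Cnp and Mbp, both oligodendrocyte markers, were at -0.56 and -0.22, and on control array 2 at -0.09 and -0.18. Microglia and macrophage markers were low on AT-EAE array 1 too, with 0 of 7 above the array median and a median of -0.28 relative to it, from -1.01 for Lyz2 to -0.05 for Tyrobp. The astrocyte markers there ran from -0.55 for Gja1 to 0.04 for Glul, with 2 of 4 above. The part of these markers in the Tubb4a ratio was not tested.

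Tuba1b, the widely expressed alpha tubulin, was at 0.15, 0.17, 0.19 and 0.55, positive on every array and larger on both AT-EAE arrays than on both control arrays. Tuba4a was at 0.05, 0.17, 0.11 and 0.53, also positive on every array, where the last came from 1 of its 2 spots, which was at 0.11, -0.02 and -0.03 on the others. Tuba8 was at 0.08, 0.43, 0.41 and -0.44, with AT-EAE array 2 of opposite sign. Tubb6 was at 0.38, -0.13, 0.05 and 0.92, on 1 spot. Tubb4b was at 0.12, -0.08, 0.09 and 0.64, on 3 spots that list the same clone. Tubb3, the neuronal beta tubulin, was at 0.39, 0.23, 0.31 and -0.17, so that only AT-EAE array 2 was negative. The remaining beta tubulins, Tubb2b and Tubb5, named after their values were seen, lay between -0.01 and 0.21 on all 4 arrays. On AT-EAE array 2, Tubb6, Tubb4b, Tuba1b and Tuba4a were thus high together, and Tuba8 was low. Tubb3 was only -0.10 relative to the array median there, within the array's spread of 0.33. Tubulin genes share long stretches of coding sequence, so a cDNA spot of 1 of them may bind the RNA of another, and their ratios are uncertain to that extent.

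The promoters of 3 of these 4 tubulins, chosen after their values were seen, are shown because their ratios were high together on AT-EAE array 2. They are RefSeq sequences of build GRCm38.p6, in windows of 300 bases around a listed start of the gene, with capitals at 3 motifs on either strand. The motif CCAAT is ATTGG on the other strand. The motif GGGCGG is CCGCCC there. The motif TATAAA is TTTATA there. Matches of different motifs may overlap. The Tuba4a window lies inside the annotated span of the gene and not at its outer end.
Tubb4b (chr2:25224653-25224952, minus strand): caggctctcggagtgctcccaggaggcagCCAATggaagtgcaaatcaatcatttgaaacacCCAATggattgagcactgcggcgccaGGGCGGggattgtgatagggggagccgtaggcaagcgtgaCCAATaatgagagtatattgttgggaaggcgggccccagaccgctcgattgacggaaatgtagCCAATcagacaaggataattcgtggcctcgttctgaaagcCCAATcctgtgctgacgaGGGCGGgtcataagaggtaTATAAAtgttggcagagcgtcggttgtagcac
Tuba1b (chr15:98934341-98934640, minus strand): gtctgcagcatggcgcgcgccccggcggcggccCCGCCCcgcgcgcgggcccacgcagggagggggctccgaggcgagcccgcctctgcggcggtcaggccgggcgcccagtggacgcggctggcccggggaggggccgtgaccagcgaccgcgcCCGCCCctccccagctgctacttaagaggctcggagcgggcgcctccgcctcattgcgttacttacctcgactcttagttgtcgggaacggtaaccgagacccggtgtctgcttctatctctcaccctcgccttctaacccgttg
Tuba4a (chr1:75219245-75219544, minus strand): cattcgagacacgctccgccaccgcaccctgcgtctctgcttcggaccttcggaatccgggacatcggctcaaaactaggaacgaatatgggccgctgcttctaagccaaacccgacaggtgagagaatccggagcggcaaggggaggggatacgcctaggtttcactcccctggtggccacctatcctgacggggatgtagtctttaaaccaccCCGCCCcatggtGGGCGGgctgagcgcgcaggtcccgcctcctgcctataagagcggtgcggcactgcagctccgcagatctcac
The Tubb4b window held CCAAT 5 times, GGGCGG 2 times and TATAAA 1 time. The Tuba1b and Tuba4a windows each held GGGCGG 2 times, with no CCAAT or TATAAA. For Tubb3 and Tuba8, which had negative ratios on AT-EAE array 2, the counts were as follows. The Tubb3 window held CCAAT 1 time and GGGCGG 2 times, with no TATAAA, and the Tuba8 window held none of the 3 motifs. Whether motifs differ between genes with high and low ratios was not tested. Of 32851 promoter windows of this length, 37.4% held CCAAT on either strand, 35.7% GGGCGG and 13.6% TATAAA. Windows in the table matched 43 of the 59 members. A match is a description of letters and not of a bound site.

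Gamma tubulin and its complex were low on control array 2. All 6 genes lay below the array median there, within a narrow range of -0.30 to -0.27, against 2 of 6 below it on control array 1, 4 of 5 on AT-EAE array 1 and 2 of 3 on AT-EAE array 2 (50.0% of all genes are below). The narrow range was a feature of the gene means and not of the spots, which lay between -0.77 and 0.07 for Tubgcp5 alone. Tubgcp5, a subunit of the complex, was at -0.04, -0.29, -0.03 and -1.10, the last from 1 of 3 spots. Tubgcp4, another subunit, was at 0.09, -0.27, -0.10 and -0.90, the last from spots at -1.47 and -0.32. Tubg1, the main gamma tubulin, was at 0.005, -0.30, 0.11 and 0.50, opposite in sign to Tubgcp4 and Tubgcp5 on AT-EAE array 2, where its spots were at 0.84 and 0.16. Tubg2 was at 0.24, -0.29 and -0.21, and Tubgcp3 at -0.06, -0.29 and -0.13, with no value on AT-EAE array 2.

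Among neurofilament genes, Nefl had small ratios in AT-EAE cord. Those of Nefm were above or near the median absolute ratio of all genes, 0.12 and 0.23 on the AT-EAE arrays. Nefl, the light subunit on which filaments assemble, was at 0.19, 0.03, 0.02 and -0.07. Nefm, the medium subunit, was at -0.09, -0.50, -0.15 and -0.23. Nefm was negative on all 4 arrays and lowest on control array 2, and Nefl was higher than Nefm on each array. No spot of 1 gene was assigned to Nefh. The neuron markers on the array had medians relative to the arrays of -0.01, -0.01, -0.06 and -0.13, on 3 to 5 genes.

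Spots of 1 gene were then compared with each other, since 28 of the 59 members had a single spot. On AT-EAE array 2, 27 of the 40 gene values rested on 1 spot, against 26 of 53, 27 of 51 and 29 of 49 elsewhere. Over all genes it was 3978 of 5616 there, against 4875 of 8818, 4715 of 8187 and 4593 of 7398. The standard deviation between spots of the same member was 0.27, 0.29, 0.24 and 0.42, as large as or larger than the standard deviation over all genes (0.21, 0.27, 0.23 and 0.36). Over the member genes alone the standard deviation was 0.18, 0.29, 0.18 and 0.56. The value between spots was thus larger than this on control array 1 and AT-EAE array 1, about equal on control array 2, and smaller on AT-EAE array 2. The value over member genes includes members with 1 spot, however. Over members with several spots alone it was 0.15, 0.21, 0.11 and 0.40, below the value between spots on each array. Between spots of the same gene over the whole array, the standard deviation was 0.24, 0.28, 0.24 and 0.36. On AT-EAE array 2 the members with 1 spot had a mean absolute ratio of 0.47, and those with more spots 0.28. Over all genes these were 0.31 and 0.22. Spots of a gene had opposite signs in 15 of 27, 14 of 24, 11 of 20 and 7 of 13 members with at least 2 values. The same count was not made over all genes, so it cannot be called particular to the members.

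The 3 Tubb4b spots, which list the same clone, lay between 0.03 and 0.26, between -0.10 and -0.06, and between -0.07 and 0.20 on the first 3 arrays. They were at 0.39, 0.68 and 0.87 on AT-EAE array 2. The mean on AT-EAE array 2 was 0.64 ± 0.24 (SD, n = 3 spots), and the spots there did not overlap those of the other arrays. Spots of 1 array are not biological replicates. For Tubb5, a widely expressed beta tubulin described here after its values were seen, the spots split. A pair of spots was positive on all 4 arrays, at 0.35, 0.14, 0.13 and 0.17, and at 0.20, 0.07, 0.18 and 0.82. The third was negative on all 4, at -0.32, -0.14, -0.19 and -0.63. The Tubb5 mean near 0 on each array therefore joined spots of opposite sign that kept their sign. Likewise, 1 Tubgcp5 spot was at -0.38, -0.77, -0.59 and -1.10, while the other two lay between -0.18 and 0.29 on the arrays that had them.

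**Figure D3:**
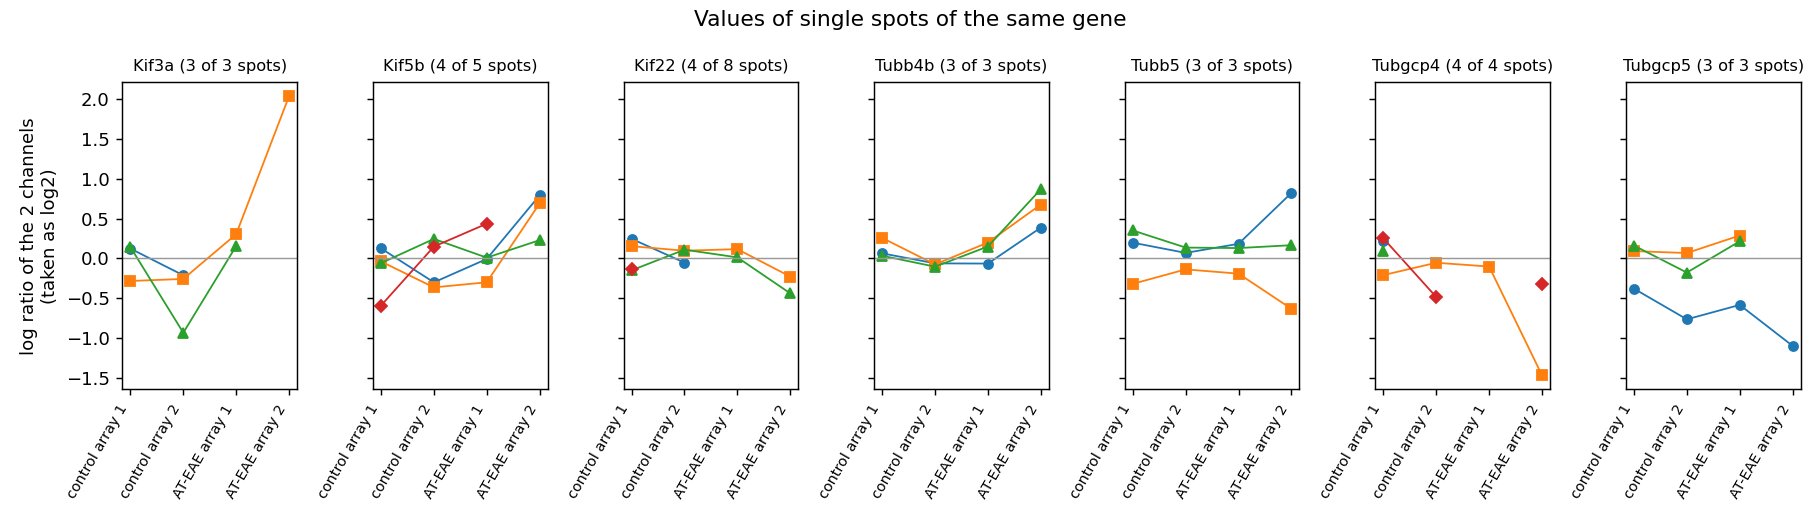
Log ratio (vertical axis, taken as log2) of every spot with a value on the 4 arrays (horizontal axis) for 7 genes with several spots, where each line joins the values of 1 spot and marks no order of the arrays. The panel titles give the number of spots with any value. A Tubb5 spot and a Tubgcp5 spot stay negative on all 4 arrays, and the 3 Tubb4b spots lie together at 0.39 to 0.87 on AT-EAE array 2.

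A further comparison asked if any ratio was shared by all 4 arrays, that is, by both groups. No member spot was called at an adjusted p under 0.05 by limma with Benjamini-Hochberg adjustment over 15028 spots, where 0.0532% of all spots were called. At an unadjusted p under 0.05 there were 8 of 75 member spots, beside 11.3% of all spots. The negative Tubgcp5 spot had a mean of -0.71 ± 0.125 (SE), taken as the mean of the 2 group means, and was negative in 4 of 4, with a limma adjusted p of 0.102. It was called without control array 1 (mean -0.80, limma adjusted p = 0.00848; 0.402% of all spots called) and without AT-EAE array 2 (mean -0.58, limma adjusted p = 0.0314; 0.959% called). No member spot was called without control array 2 (0.464% called). Without AT-EAE array 1, 6 member spots were called, beside 7.28% of all spots. These were the spots of Kif3a at 0.88, Tubgcp5 at -0.84, Tubgcp4 at -0.80 and Tubb6 at 0.52, and the Tubb5 spots at 0.48 and -0.43. Not all of these means were of a shared ratio. The Kif3a spot was at -0.28 and -0.26 on the control arrays and at 2.04 on AT-EAE array 2. The Tubb6 spot was at 0.38 and -0.13 on the control arrays and at 0.92 on AT-EAE array 2. The Tubgcp5, Tubgcp4 and Tubb5 spots kept their sign on every array, but those of Tubgcp4 and Tubb5 rested largely on AT-EAE array 2. The Tubgcp4 spot was at -0.21, -0.05, -0.10 and -1.47. Without AT-EAE array 2 its mean was -0.12 and the means of the Tubb5 spots were 0.16 and -0.21, against -0.58 for the Tubgcp5 spot. Each of these fits leaves 1 array in a group, which is assumed to vary like the arrays of the other group. Without AT-EAE array 1 each of the 6 spots had the same SE of 0.14.

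The same sign on all 4 arrays was seen for 14 of the 53 member spots with 4 values, beside 23.1% of all such spots. Of these, 9 were positive and 5 negative. At the level of genes it was 9 of 40, beside 22.2% of all genes. The genes were Dctn6, Kif23, Kif5c, Tuba1b, Tuba4a and Tubb5, all positive, and Kif2c, Nefm and Tubgcp5, all negative. The counts for spots and genes were close to those over all features.

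The last comparison asked if the ratios of these genes were larger in AT-EAE than in control. The 40 members with 4 values had a larger mean absolute ratio in AT-EAE, but this rested on AT-EAE array 2. The mean absolute ratio was 0.15, 0.22, 0.14 and 0.41. Over all 5429 genes it was 0.14, 0.19, 0.15 and 0.28. The control mean was 0.18 ± 0.05 (SD, n = 2 arrays). For AT-EAE it was 0.27 ± 0.19 (SD, n = 2), and the arrays of the groups overlapped. Without AT-EAE array 2 the AT-EAE value was 0.14, below that of control. Without Kif3a, chosen after its value was seen, the members' mean on AT-EAE array 2 was 0.36. AT-EAE array 2 also had the fewest values and the widest spread over all genes, and the part of these in the members' values was not tested.

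By class, the mean absolute ratio of 12 tubulin and gamma-tubulin complex genes was 0.14, 0.22, 0.19 and 0.50. That of 14 kinesin genes was 0.15, 0.17, 0.14 and 0.45. For 12 dynein and dynactin genes it was 0.16, 0.27, 0.11 and 0.30, and for the 2 neurofilament genes 0.14, 0.27, 0.09 and 0.15. By this mean, tubulins and kinesins were further from 0 on AT-EAE array 2 than all genes were, dynein and dynactin about as far, and neurofilaments less far. The kinesin mean included Kif3a at 2.04, from 1 spot. The median absolute ratio over genes with a value there was 0.26 for kinesins, near the 0.23 of all genes. For tubulins it was 0.51, for dynein and dynactin 0.24 and for neurofilaments 0.15. Within the tubulin class it was 0.53 for 3 alpha tubulins and 0.90 for 3 genes of gamma tubulin and its complex. For 6 beta tubulins it was 0.15, below that of all genes. The mean absolute ratios of these roles there were 0.51, 0.83 and 0.33. These are descriptions, and differences between the classes were not tested.

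**Figure D4:**
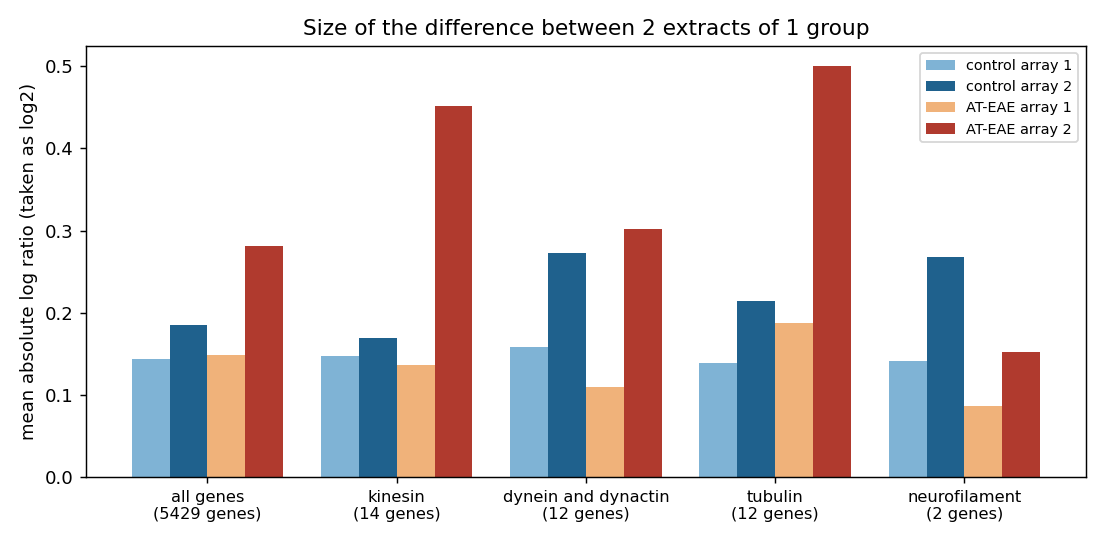
Mean absolute log ratio (vertical axis, taken as log2) over the genes with values on all 4 arrays, for all genes and for each class (horizontal axis, with the number of genes), with 1 bar per array and no error bars, since each bar is 1 array. On AT-EAE array 2 tubulins reach 0.50 and kinesins 0.45, against 0.28 for all genes, and neurofilaments 0.15. The kinesins there include Kif3a at 2.04.

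No gene passed limma's test of the absolute ratio between groups on the log2(absolute ratio + 0.1) scale at an adjusted p under 0.05 (0 of 5429 genes tested, 0.0%), and 3.26% of all genes and 1 of 40 members had an unadjusted p under 0.05. The member was Kif3a, with a difference of 1.77 ± 0.77 (SE) on that scale and a limma adjusted p of 1.00, carried by AT-EAE array 2. In simulated data with 2 arrays per group this test recovered 151 of 200 genes whose ratios were made 16 times larger on both AT-EAE arrays. The absolute ratio was larger on both AT-EAE arrays than on both control arrays for 7 of 40 members, beside 20.3% of all genes. These were Tuba1b, Kif22, Kif2c, Dynll1, Dync1i2, Dctn5 and Dctn6. It was smaller on both for 3 of 40 (Dynll2, Dynlrb1 and Dynlt1b), beside 10.3% of all genes.

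Related genes outside the rule, such as microtubule-associated proteins, tubulin chaperones and motor adaptors, had a mean absolute ratio of 0.25 on AT-EAE array 2, near that of all genes. Of 80 listed genes, 59 were on the array, with values for 53, 51, 47 and 41. Their mean absolute ratios were 0.16, 0.19, 0.14 and 0.25, and 0, 1, 0 and 0 of them reached 1. The 8 with the largest mean absolute ratio included Stmn4, a tubulin-binding stathmin of neurons, at -0.03 and -1.06 on control arrays 1 and 2 with no value in AT-EAE, and Camsap3, a minus-end binding protein, at -0.47 on control array 2 alone. Myo5a, an actin motor, was at -0.32, -0.81 and -0.10, with no value on AT-EAE array 2. Prph, the neuronal intermediate filament peripherin, was at -0.33, 0.09, 0.28 and -0.67. Map4, a microtubule-associated protein, was at 0.11, -0.17, -0.23 and -0.79. Kifc2, a kinesin named outside the rule, was at 0.42, 0.16, -0.07 and -0.57. Pafah1b1, the dynein regulator LIS1, was at 0.26, -0.21, -0.05 and -0.64, and Stmn3 at 0.05, 0.38, 0.15 and -0.55. These last 5 were lowest on AT-EAE array 2, but they were picked for large absolute ratios. Over the whole list, 22 of the 41 genes with a value there were above the array median (50.0% of all genes are), and the median relative to the array was 0.02.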

How the data were processed

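Values are those of 4 2-colour cDNA arrays. Per the labels, the authors normalized the 2 channel signals; the deposited values are signed with medians within 0.1 of 0, and were taken as log2 ratios. Filter, background correction and software were not given in the sources used here. Of 28704 spots, 18511 had 1 gene, 937 several and 9256 none. Symbols were updated through gene identifiers to the GRCm38.p6 table for 18267 spots, and kept for 244; all 116 member spots matched. A gene's ratio is the mean over its spots.

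With limma 3.58.1 (R 4.3.3), the spot ratio was tested against 0 over 4 arrays (values on at least 3), and log2(absolute ratio + 0.1) between groups for genes with 4 values, with Benjamini-Hochberg adjustment over all features. On simulated data the first recovered 200 of 200 spots shifted by 1, with 11 unshifted spots called. Differences of single members, classes and shares have no test. Python 3.11.15 with pandas 2.3.3 was used otherwise.

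The members and lists were chosen with earlier results of these data known. Named were all dynein, dynactin, light chain and neurofilament genes, the 10 kinesins and 10 tubulins with the largest mean absolute ratio and 4 values, members with an absolute ratio of at least 1, a called spot, or values in 1 group alone, and 8 related genes. Others were named after their values were seen. Per the labels the 4 extracts of a group are distinct; p-values reflect the spread between 2 arrays per group.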

Additional observations from a re-analysis of the deposited data

How the results depend on the processing

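With 2 arrays per group and often 1 spot per gene, single ratios carry no error of their own, and no signal over background was analysed. No paired analysis was possible because array numbers only name the arrays. The count of all spots with a shared ratio was 8, and 13 with 1 row per gene, 4 with values on all 4 arrays, 5 after centring and 41 to 749 without 1 array. That of member spots was 0, and 0 to 6 without 1 array (6 without AT-EAE array 1, and 1 each without control array 1 and AT-EAE array 2). The between-group test called 0 genes in every alternative run. The share of members with a value was, counted over spots, 72.4%, 64.7% and 49.1% on control array 2, AT-EAE array 1 and AT-EAE array 2. With at least 2 spots required it was 45.8%, 40.7%, 33.9% and 22.03% in the order of the report. Divided by each array's spread, the mean absolute ratio of members was 0.90 in control and 1.02 in AT-EAE, in units of that spread. Not divided by that spread, the mean absolute ratio without 1 array ran from 0.15 to 0.22 in control and from 0.14 to 0.41 in AT-EAE.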
